A study of Homo sapiens with 4 samples.

Results

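Genes whose response to low oxygen depended on the culture format were described in A549 cells, an established human line from a lung adenocarcinoma. For every gene the response to hypoxia was taken as the log2 ratio of (FPKM + 1) in hypoxia over normoxia, and the response on plastic (2D) was subtracted from the response on Matrigel (3D). The genes described are the 264 of 12561 genes compared (2.10%) in which this difference was at least 1 either way, which means that the hypoxia-to-normoxia ratio of (FPKM + 1) was at least 2 times as large in one format as in the other. The deposited tables list 26255 gene symbols, and genes with a mean below 1 FPKM, small RNA genes and genes listed at 0 in any library were not compared. The difference itself chose the members, so it is given as a description and not as a test.

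The series holds 4 mRNA libraries, 1 for each combination of culture and oxygen. All cells were the same line, held for 5 days in medium with 5% serum. The 3D cells sat on a bed of set Matrigel, a basement membrane extract from a mouse tumour, and the 2D cells on an ordinary culture dish. Each format was kept at normal oxygen (3D normoxia, 2D normoxia) or at 1% oxygen (3D hypoxia, 2D hypoxia). No other treatment and no genetic change is named in the labels, which also do not say whether the libraries came from separate cultures. With 1 library per group no value below has a replicate check, no test was possible, and the difference between the formats was not tested for any gene.

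Cells sense oxygen through prolyl hydroxylases that mark the hypoxia-inducible factor (HIF) alpha subunits for destruction while oxygen is present. When oxygen is short, HIF accumulates, binds a short core sequence in its target genes and turns on glucose uptake, glycolysis, angiogenic factors and matrix-modifying enzymes. Lung epithelium also uses much of its transcription for mucus, secreted defence proteins and ion transport, and A549 cells are known for producing several liver-type plasma proteins.

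The epithelial keratins KRT8 and KRT18 lay between 1721 and 3731 FPKM in the 4 libraries, and EPCAM, an epithelial adhesion molecule, between 1.43 and 2.73 FPKM. The lung lineage factor NKX2-1 was at most 0.0571 FPKM and the surfactant genes SFTPC and SFTPB at most 0.1003 FPKM, so these lung markers were all but absent. Of 17 markers of fibroblasts, endothelium and blood cells, 16 were under 1 FPKM in every library, and FAP, CD3E and HBA1 were at 0 in all of them. The exception was CD14, at 11.4 and 9.29 FPKM in 3D (normoxia, then hypoxia) and 10.7 and 3.44 FPKM in 2D. The list summed to 12.5, 10.4, 12.2 and 4.95 FPKM in that order. In bulk RNA, fewer cells of a kind and less RNA per cell cannot be told apart. Estimated depth was about 11700000, 11300000, 23700000 and 38500000 fragments in the same order, so the 3D libraries carry the larger counting error. Scaling every library to the same FPKM sum moved the median response of all genes from -0.02 to -0.14 in 3D and from -0.00266 to -0.13 in 2D, and left their median difference at -0.01. Among the members named by rule, responses near 0 changed sign under it for PTGS2, AMD1, CXCL5, FGA and VTN in 3D and for COL6A2 and GADD45A in 2D.

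Members whose response was more positive in 3D than in 2D outnumbered the others. The difference was at least 1 in 204 genes (1.62% of genes compared) and at most -1 in 60 genes (0.478%). It reached 2 in 17 genes and -2 in 9. Over all 12561 genes the median difference was -0.01, 48.2% of the differences were above 0, and the middle 95% lay between -0.60 and 0.85. The median member had a mean of 7.86 FPKM, against 10.9 FPKM for all genes compared. Counting error of the difference, from fragment sampling alone, had a median of 0.18 over the 252 members with a known transcript length. Members were chosen for a difference of at least 1, so nearly all exceed 2 such errors by construction, and 250 of the 252 did. This says nothing of variation between libraries.

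Each member was assigned to a class by its response in the 2 formats, with a response counted when it was at least 2-fold. A response in 3D alone was seen in 73 members and one in 2D alone in 69. In 31 members the responses were of opposite sign with at least 0.5 on the log2 scale in each format. Another 31 responded at least 2-fold the same way in both formats by unequal amounts, and 60 were below 2-fold in each. Fold sizes throughout are of (FPKM + 1), so a low gene can change by more in FPKM than its class says. F3, classed as 2D alone, went from 0.841 to 2.21 FPKM between normoxia and hypoxia in 3D. BMP6, classed as below 2-fold in each, went from 3.91 to 8.41 FPKM in 3D. Hypoxia was at least 2-fold higher than normoxia for 2.77% of genes compared in 3D and 1.76% in 2D, and at least 2-fold lower for 0.916% in 3D and 1.39% in 2D.

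**Figure D1:**
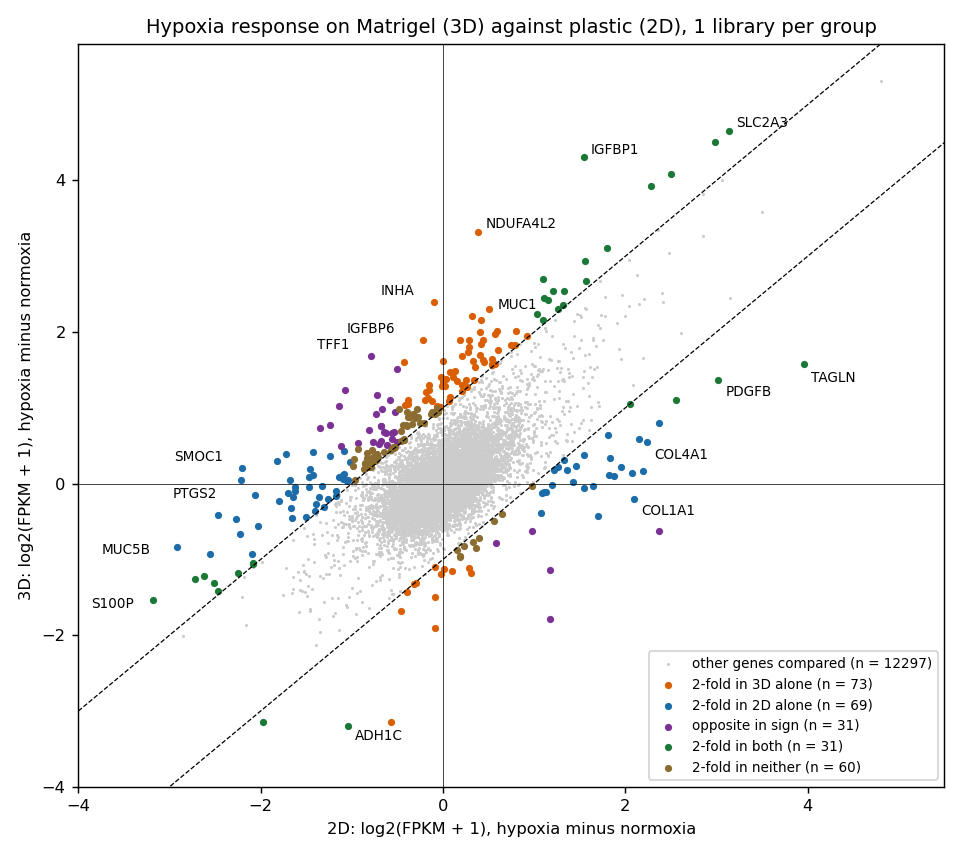
Response to hypoxia in 3D (vertical axis) against that in 2D (horizontal axis), both as log2 ratios of (FPKM + 1). The 264 members are coloured by class, and the rest of the 12561 genes compared are grey. The members lie at least 1 above or below the line of equal responses by construction, and 204 of them lie above it.

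Most genes past 2-fold in one format alone were not members. Hypoxia was at least 2-fold higher for 348 genes in 3D and 221 in 2D, and the 133 genes in both lists are 38.2% of the 3D list and 60.2% of the 2D list. Of the 215 genes that passed 2-fold in 3D and not in 2D, 66 were members. The lists of genes at least 2-fold lower held 115 genes in 3D and 175 in 2D, and the 62 shared genes are 53.9% and 35.4% of them. Among the 113 genes 2-fold lower in 2D and not in 3D, 48 were members.

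Promoters were compared for the short core that HIF binds. RefSeq promoters (GRCh38.p14, 250 bases before to 50 after the annotated start) were found for 173 of the 264 members. They are given 5′ to 3′ on the gene's strand, with ACGTG or GCGTG, read on either strand, in capitals. Shown are, for classes and directions, the named members of largest difference with a promoter in the table: NDUFA4L2 with a response in 3D alone, SMOC1 and EDN2 with a response in 2D alone, TF with opposite responses, and S100P and ADH1C with lower levels in hypoxia in both formats. The starts used in these cells were not measured, and these coordinates belong to another build than the hg19 of the expression tables.
NDUFA4L2, chr12:57240713-57241012 (minus strand): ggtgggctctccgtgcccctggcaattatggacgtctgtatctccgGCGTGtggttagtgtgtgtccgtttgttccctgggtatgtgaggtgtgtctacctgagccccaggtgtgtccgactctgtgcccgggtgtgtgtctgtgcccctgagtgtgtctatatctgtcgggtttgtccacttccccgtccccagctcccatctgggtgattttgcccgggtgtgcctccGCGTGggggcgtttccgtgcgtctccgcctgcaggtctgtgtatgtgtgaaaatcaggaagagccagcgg
SMOC1, chr14:69879166-69879465 (plus strand): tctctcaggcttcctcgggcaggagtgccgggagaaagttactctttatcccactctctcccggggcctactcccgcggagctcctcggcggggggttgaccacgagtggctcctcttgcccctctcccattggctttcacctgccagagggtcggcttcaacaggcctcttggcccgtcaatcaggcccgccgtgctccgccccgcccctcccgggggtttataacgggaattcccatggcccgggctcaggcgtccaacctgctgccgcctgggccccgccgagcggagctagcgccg
EDN2, chr1:41484634-41484933 (minus strand): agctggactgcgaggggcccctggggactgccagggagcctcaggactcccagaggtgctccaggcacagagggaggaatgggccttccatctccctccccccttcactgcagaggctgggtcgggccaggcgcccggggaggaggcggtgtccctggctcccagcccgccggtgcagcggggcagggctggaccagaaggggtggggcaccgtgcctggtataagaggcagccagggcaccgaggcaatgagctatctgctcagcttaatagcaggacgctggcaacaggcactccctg
TF, chr3:133661748-133662047 (plus strand): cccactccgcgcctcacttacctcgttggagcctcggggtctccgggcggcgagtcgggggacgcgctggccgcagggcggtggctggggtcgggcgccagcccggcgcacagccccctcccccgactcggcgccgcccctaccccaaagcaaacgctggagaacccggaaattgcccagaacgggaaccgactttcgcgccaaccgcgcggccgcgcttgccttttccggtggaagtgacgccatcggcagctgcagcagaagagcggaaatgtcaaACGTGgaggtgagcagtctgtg
S100P, chr4:6693628-6693927 (plus strand): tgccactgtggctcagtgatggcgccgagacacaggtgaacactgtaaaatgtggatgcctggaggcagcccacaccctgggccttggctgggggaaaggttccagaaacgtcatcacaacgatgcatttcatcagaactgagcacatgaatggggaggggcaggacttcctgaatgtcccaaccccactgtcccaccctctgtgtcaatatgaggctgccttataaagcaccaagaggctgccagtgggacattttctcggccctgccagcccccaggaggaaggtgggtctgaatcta
ADH1C, chr4:99352697-99352996 (minus strand): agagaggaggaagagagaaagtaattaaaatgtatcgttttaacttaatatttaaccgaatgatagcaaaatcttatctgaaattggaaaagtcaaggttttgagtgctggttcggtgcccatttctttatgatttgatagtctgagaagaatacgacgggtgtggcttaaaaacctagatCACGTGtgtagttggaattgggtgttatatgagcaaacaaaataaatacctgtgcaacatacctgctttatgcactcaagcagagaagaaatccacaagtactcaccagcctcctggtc

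The NDUFA4L2 window held 2 GCGTG cores and the TF window 1 ACGTG core. ADH1C had CACGTG, which reads as ACGTG on both strands. SMOC1, EDN2 and S100P had neither core, which says only that these letters are not in these windows.

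The class with a response in 3D alone was mostly made of genes higher in hypoxia. In 60 of the 73 the 3D response was positive, with medians of 1.57 in 3D and 0.21 in 2D, and in 13 it was negative, with medians of -1.31 and -0.09. The 2D response was under 0.5 in size in 60 of the 73. NDUFA4L2, a HIF target related to a cytochrome c oxidase subunit and known to lower mitochondrial oxygen use, had the largest positive difference with the pseudocount of 1 FPKM. It was measured at 0.314 FPKM (normoxia) and 12.1 FPKM (hypoxia) in 3D, against 0.5 and 0.957 FPKM in 2D. Only the 3D hypoxia library was above 1 FPKM, and the gene passed the filter on the mean through it alone. The response was 3.32 in 3D and 0.38 in 2D, a difference of 2.94 (counting error 0.28). With a pseudocount of 5 FPKM its difference was 1.57, below the 2.78 of IGFBP1. INHA, the alpha subunit of inhibin, was measured at 0.691 and 7.86 FPKM in normoxic and hypoxic 3D cells and 1.11 and 0.976 FPKM in the 2D cells. The 3D hypoxia library again stood apart from the others, with responses of 2.39 in 3D and -0.09 in 2D, a difference of 2.48. INHA too reached the mean of 1 FPKM only through that library.

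IGFBP6, a binding protein that prefers IGF2, was measured at 43.1 FPKM at normal and 163 FPKM at low oxygen in 3D, and 71.8 and 61.3 FPKM in 2D. In 2D the hypoxic library was slightly below the normoxic one, and the responses were 1.90 in 3D and -0.22 in 2D, a difference of 2.12. MUC1, a membrane mucin of the apical surface, was measured at 5.16 FPKM (normoxia) and 29.3 FPKM (hypoxia) in 3D, against 5.3 and 7.91 FPKM in 2D. Its 2 normoxic libraries lay close together and the 3D hypoxia library lay far above, with a difference of 1.80. AGTR1, the angiotensin II receptor, went from 3.59 to 20.3 FPKM between normoxia and hypoxia in 3D and from 0.876 to 1.34 FPKM in 2D, a difference of 1.90. AKR1B15, an aldo-keto reductase, gave a difference of 2.03, but its sequence is close to that of AKR1B10 and its reads may be split between them.

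Secreted immune and iron-handling genes were also in this class. CP, the copper-carrying ferroxidase ceruloplasmin, was measured at 146 and 526 FPKM in normoxic and hypoxic 3D cells and 31.5 and 42.5 FPKM in the 2D cells. Both 3D libraries were above both 2D libraries, and hypoxia was far higher than normoxia in 3D alone, with responses of 1.85 in 3D and 0.42 in 2D, a difference of 1.42. C3, the central complement component, was measured at 59.5 FPKM at normal and 139 FPKM at low oxygen in 3D, and 20.2 and 17.7 FPKM in 2D, and C1R, a protease that starts the classical complement pathway, at 23.6 FPKM (normoxia) and 74.1 FPKM (hypoxia) in 3D, against 18.6 and 25.8 FPKM in 2D. Their differences were 1.39 and 1.16. The neutrophil chemokine CXCL8 stood at 13.3 and 57 FPKM in normoxic and hypoxic 3D cells and 4.5 and 7.28 FPKM in the 2D cells, a difference of 1.43. For C3 the 3D and 2D libraries did not overlap in level, and 2D hypoxia was the lowest of the 4.

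Genes with other roles were higher in hypoxia in 3D alone as well. FOS, an AP-1 subunit, had a difference of 1.45, TMEM45A, a transmembrane HIF target, 1.36, and TRIB3, a pseudokinase of the stress response, 1.30. PLAU, the urokinase protease, was measured at 13.6 FPKM at normal and 29.9 FPKM at low oxygen in 3D, and 53.2 and 49 FPKM in 2D. Its 3D response brought the level only part of the way to the 2D level, and the difference was 1.20. The desmosomal linker DSP (1.04), the protease MMP7 (1.02) and the collagen chain COL6A2 (1.02) lay close to the threshold. For MMP7 the levels were 93.6 FPKM (normoxia) and 220.2 FPKM (hypoxia) in 3D, against 105 and 121 FPKM in 2D, with 3D hypoxia the highest library.

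Of the 13 genes lower in hypoxia in 3D alone, 5 with a symbol other than LOC or LINC reached 5 FPKM in a library. GADD45A, a growth arrest and DNA damage gene, was measured at 11.9 and 4.92 FPKM in normoxic and hypoxic 3D cells and 10.7 and 10.8 FPKM in the 2D cells, a difference of -1.14. The 3D hypoxia library was the lowest and the others were alike. BDNF, a neurotrophin, was measured at 9.32 FPKM at normal and 3.17 FPKM at low oxygen in 3D, and 6.87 and 5.42 FPKM in 2D, a difference of -1.02. FAM101B, an actin regulator, gave -1.001. H3F3A, a histone H3.3 gene with near-identical copies, went from 7.93 to 0.00613 FPKM between normoxia and hypoxia in 3D and from 4.05 to 2.41 FPKM in 2D, and the pseudogene ANKRD20A12P had a difference of -1.03. Reads of those last genes can be split among copies, so their differences of -2.58 and -1.03 are uncertain.

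**Figure D2:**
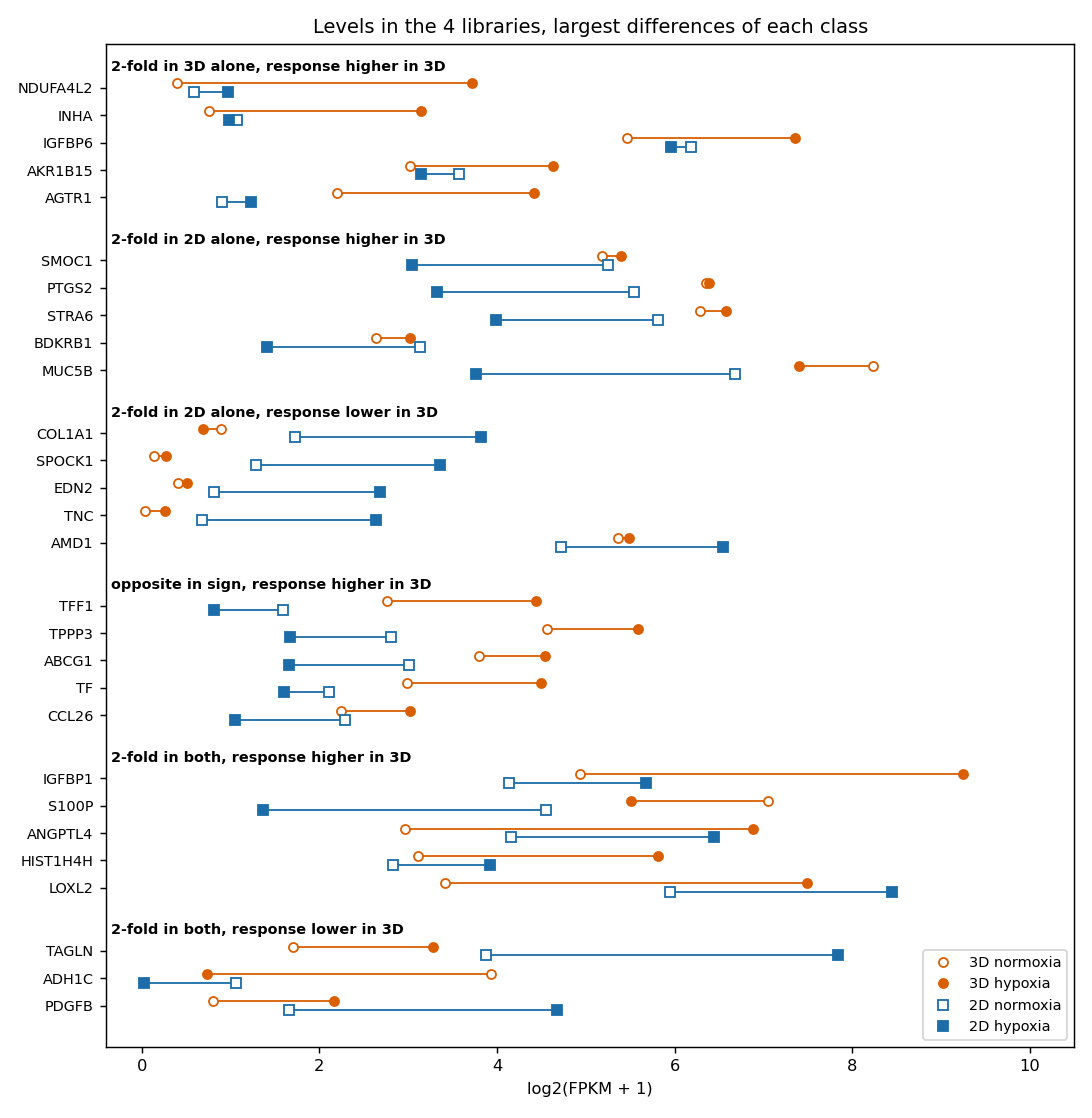
Level in each of the 4 libraries, as log2(FPKM + 1) on the horizontal axis, for the members with the largest differences by class and direction. Circles stand for 3D and squares for 2D, open for normoxia and filled for hypoxia, with 1 library per point and so no error bars. NDUFA4L2 and INHA stand out in 3D hypoxia alone, whereas PTGS2 and SMOC1 are low in 2D hypoxia alone.

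Responses in 2D alone ran mainly downward. In 43 of the 69 members of this class the level was lower in 2D hypoxia, with medians of -1.47 in 2D and -0.10 in 3D, and in 26 it was higher, with medians of 1.59 and 0.15. The 3D response was under 0.5 in size in 60 of the 69. SMOC1, a secreted calcium-binding matrix protein, was measured at 35.4 FPKM (normoxia) and 41 FPKM (hypoxia) in 3D, against 36.9 and 7.25 FPKM in 2D. The other libraries lay together and 2D hypoxia lay below them, with responses of 0.21 in 3D and -2.20 in 2D, a difference of 2.41. PTGS2, the inducible cyclooxygenase of prostaglandin synthesis, was measured at 80.4 and 83 FPKM in normoxic and hypoxic 3D cells and 45.6 and 9.04 FPKM in the 2D cells. The 3D libraries were level with each other, at a response of 0.04, while in 2D the response was -2.21.

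STRA6, the cellular receptor for retinol-binding protein, was measured at 77.1 FPKM at normal and 94.7 FPKM at low oxygen in 3D, and 55.2 and 14.9 FPKM in 2D, a difference of 2.11. BDKRB1, the inducible bradykinin receptor, was measured at 5.2 FPKM (normoxia) and 7.12 FPKM (hypoxia) in 3D, against 7.76 and 1.65 FPKM in 2D, a difference of 2.11. Both were slightly higher in hypoxia in 3D and lowest in 2D hypoxia. CXCL5, another neutrophil chemokine, was measured at 353 and 376 FPKM in normoxic and hypoxic 3D cells and 132 and 47.1 FPKM in the 2D cells, and CYP2S1, a cytochrome P450, at 66.5 FPKM at normal and 75.9 FPKM at low oxygen in 3D, and 58.4 and 20.6 FPKM in 2D. VTN, the adhesive plasma protein vitronectin, was measured at 56.5 FPKM (normoxia) and 61.1 FPKM (hypoxia) in 3D, against 68 and 24.6 FPKM in 2D. In each of these genes 2D hypoxia was the lowest library, and the differences were 1.56, 1.65 and 1.54.

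A further group was lower in hypoxia in both formats, and past 2-fold in 2D alone. MUC5B, a gel-forming airway mucin, was measured at 301 and 168 FPKM in normoxic and hypoxic 3D cells and 101 and 12.5 FPKM in the 2D cells. Its responses were -0.84 in 3D and -2.91 in 2D, a difference of 2.08. AGR2, a protein disulfide isomerase needed for mucin folding, was measured at 918 FPKM at normal and 484 FPKM at low oxygen in 3D, and 435 and 73.3 FPKM in 2D, with responses of -0.92 in 3D and -2.55 in 2D, a difference of 1.63. DKK1, a secreted Wnt antagonist, was measured at 445 FPKM (normoxia) and 301 FPKM (hypoxia) in 3D, against 353 and 85.7 FPKM in 2D, a difference of 1.47. ALDH3A1, an aldehyde dehydrogenase, was measured at 1269 and 665 FPKM in normoxic and hypoxic 3D cells and 449 and 104 FPKM in the 2D cells, a difference of 1.17. For all of these the direction of the response was shared and the size was not.

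Further positive differences with a 2-fold lower level in 2D hypoxia than in 2D normoxia were seen for the tight junction scaffold TJP3 (1.52), the protease inhibitor SLPI (1.47) and the fibrinogen chain FGA (1.22). Siderophore-binding LCN2 (1.20), CD14, a lipopolysaccharide co-receptor (1.12), the stress cytokine GDF15 (1.04) and EVA1C (1.00) lay nearer the threshold. SLPI was measured at 161 FPKM at normal and 143 FPKM at low oxygen in 3D, and 78.1 and 24.3 FPKM in 2D.

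The genes higher in hypoxia in 2D alone included matrix and cell-surface genes at low level in 3D. COL1A1, the main chain of type I collagen, was measured at 0.856 FPKM (normoxia) and 0.614 FPKM (hypoxia) in 3D, against 2.32 and 13.2 FPKM in 2D. Both 3D libraries were under 1 FPKM, 2D hypoxia was highest, and the responses were -0.20 in 3D and 2.09 in 2D, a difference of -2.29 (counting error 0.42). The gene reached the 5 FPKM for naming in 2D hypoxia alone. COL4A1 and COL4A2 encode the paired chains of basement membrane type IV collagen. COL4A1 was measured at 2.49 and 4.08 FPKM in normoxic and hypoxic 3D cells and 8.8 and 45.4 FPKM in the 2D cells, and COL4A2 at 12.7 FPKM at normal and 20.3 FPKM at low oxygen in 3D, and 31.5 and 113 FPKM in 2D. Both were also higher in hypoxia in 3D, by 0.54 and 0.64 against 2.24 and 1.81 in 2D.

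The proteoglycan gene SPOCK1 was measured at 0.0994 FPKM (normoxia) and 0.207 FPKM (hypoxia) in 3D, against 1.44 and 9.29 FPKM in 2D, a difference of -1.94. TNC, the matrix glycoprotein tenascin C, was measured at 0.0273 and 0.2 FPKM in normoxic and hypoxic 3D cells and 0.607 and 5.21 FPKM in the 2D cells, and F3, the coagulation tissue factor, at 0.841 FPKM at normal and 2.21 FPKM at low oxygen in 3D, and 1.45 and 11.7 FPKM in 2D. EDN2, a vasoconstrictor peptide of the endothelin family, was measured at 0.325 FPKM (normoxia) and 0.421 FPKM (hypoxia) in 3D, against 0.757 and 5.43 FPKM in 2D. The 2D hypoxia library was the highest in each of these, with differences of -1.73, -1.57 and -1.77. MMP2, a gelatinase, had a difference of -1.22. SPOCK1, TNC, EDN2 and MMP2 reached the mean of 1 FPKM only through 2D hypoxia, and F3 the 5 FPKM for naming. That 2D hypoxia was their highest library therefore follows partly from how they entered. With a pseudocount of 5 FPKM the differences of TNC, EDN2 and MMP2 were -0.82, -0.83 and -0.60, below the threshold in size, and those of SPOCK1 and COL1A1 were -1.12 and -1.37. As a plain ratio of FPKM, TNC was higher in hypoxia by nearly as much in 3D as in 2D. Its 3D levels were near 0, so its class and difference rest on the pseudocount. AMD1, an enzyme of polyamine synthesis, was measured at 40.2 and 43.7 FPKM in normoxic and hypoxic 3D cells and 25.4 and 92.3 FPKM in the 2D cells, a difference of -1.70.

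Opposite responses were seen in 31 members, of which 26 were higher in hypoxia in 3D and lower in 2D, with medians of 0.72 and -0.68. With the libraries scaled to the same sum 46 members were in this class, and with the same upper quartile 27. TFF1, a small secreted mucosal repair peptide, was measured at 5.78 FPKM at normal and 20.7 FPKM at low oxygen in 3D, and 2.02 and 0.755 FPKM in 2D. The 3D hypoxia library was highest and 2D hypoxia lowest, with responses of 1.68 in 3D and -0.79 in 2D, a difference of 2.46. TPPP3, a tubulin-binding protein, was measured at 22.6 FPKM (normoxia) and 46.9 FPKM (hypoxia) in 3D, against 6 and 2.18 FPKM in 2D, with responses of 1.02 in 3D and -1.14 in 2D, a difference of 2.16. ABCG1, a lipid exporter, was measured at 13 and 22.3 FPKM in normoxic and hypoxic 3D cells and 7.06 and 2.17 FPKM in the 2D cells, with responses of 0.74 in 3D and -1.35 in 2D, a difference of 2.08. In TPPP3 and ABCG1 both 3D libraries lay above both 2D libraries.

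TF, the iron carrier transferrin, was measured at 6.91 FPKM at normal and 21.5 FPKM at low oxygen in 3D, and 3.31 and 2.04 FPKM in 2D, with responses of 1.51 in 3D and -0.50 in 2D, a difference of 2.01. The eosinophil chemokine CCL26 had responses of 0.78 in 3D and -1.24 in 2D, a difference of 2.01, and the neutrophil chemokine CXCL1 had 0.50 in 3D and -1.12 in 2D, a difference of 1.62. The transcription factor KLF2, which is known to respond to flow in endothelium, had responses of 0.92 in 3D and -0.73 in 2D, a difference of 1.65. DUSP5, a phosphatase that acts on nuclear ERK, had responses of 0.67 in 3D and -0.56 in 2D, a difference of 1.23, and LAMA3, a chain of the epithelial laminin, 0.68 in 3D and -0.53 in 2D, a difference of 1.22. TF and LAMA3 in 2D and CXCL1 in 3D were barely past the minimum of 0.5.

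In 5 members the response was at most -0.5 in 3D and at least 0.5 in 2D, and 3 of them reached 5 FPKM in a library. ENO3, the muscle-type enolase, was measured at 25.5 FPKM (normoxia) and 14.3 FPKM (hypoxia) in 3D, against 21.8 and 32.9 FPKM in 2D, with responses of -0.79 in 3D and 0.58 in 2D, a difference of -1.37. CDC37L1-AS1 and TMEM256-PLSCR3 had differences of -2.31 and -2.99. The former is an antisense gene and how strand was treated in counting was not given in the sources. The latter is a readthrough of neighbouring genes, went from 7.51 to 4.54 FPKM between normoxia and hypoxia in 3D and from 0.0135 to 4.24 FPKM in 2D, and can share reads with both of them, so both values are uncertain.

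Members that responded at least 2-fold the same way in both formats were led by IGFBP1, an IGF binding protein and known HIF target. It was measured at 29.6 and 604 FPKM in normoxic and hypoxic 3D cells and 16.5 and 50.1 FPKM in the 2D cells. Both formats were higher in hypoxia, by 4.31 in 3D and 1.54 in 2D, and the difference of 2.76 was the largest of the class (counting error 0.09). ANGPTL4, a lipoprotein lipase inhibitor, was measured at 6.78 FPKM at normal and 117 FPKM at low oxygen in 3D, and 16.8 and 85.8 FPKM in 2D, a difference of 1.64. LOXL2, a collagen cross-linking oxidase, was measured at 9.64 FPKM (normoxia) and 179 FPKM (hypoxia) in 3D, against 60.6 and 347 FPKM in 2D, a difference of 1.59. WISP2, a matricellular protein of the CCN family, had responses of 4.51 in 3D and 2.98 in 2D, a difference of 1.53.

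In 8 of the 25 members of this class with positive differences, the formats lay nearer to each other in hypoxia than in normoxia on the log2 scale. In the rest they lay farther apart in hypoxia. SLC2A3, ADM and PLOD2 were among the 8. SLC2A3, the high-affinity glucose transporter GLUT3, was measured at 6.46 and 187 FPKM in normoxic and hypoxic 3D cells and 24 and 219 FPKM in the 2D cells. ADM, the vasodilator peptide adrenomedullin, was measured at 16.3 FPKM at normal and 132 FPKM at low oxygen in 3D, and 50.2 and 149.9 FPKM in 2D, and PLOD2, a collagen lysyl hydroxylase, at 33.5 FPKM (normoxia) and 218 FPKM (hypoxia) in 3D, against 71.3 and 213 FPKM in 2D. In all 3 the 3D normoxia library was the lowest of the 4, and the differences were 1.52, 1.38 and 1.10. MT1X, a metal-binding metallothionein with close paralogs, had a difference of 1.04, and the histone gene HIST1H4H, one of many near-identical copies, 1.61.

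S100P, SPDEF, AQP3, SLC51B and MUC5AC were lower in hypoxia in both formats, and more so in 2D. S100P, a calcium-binding protein, was measured at 131 and 44.5 FPKM in normoxic and hypoxic 3D cells and 22.4 and 1.58 FPKM in the 2D cells, with responses of -1.54 in 3D and -3.19 in 2D, a difference of 1.65. SPDEF, which drives goblet cell differentiation, was measured at 45 FPKM at normal and 18.2 FPKM at low oxygen in 3D, and 19 and 2.04 FPKM in 2D, a difference of 1.46. AQP3, a water and glycerol channel, was measured at 179.9 FPKM (normoxia) and 72 FPKM (hypoxia) in 3D, against 31.2 and 4.65 FPKM in 2D, a difference of 1.20. SLC51B, a subunit of a bile acid transporter, and the gel-forming mucin MUC5AC had differences of 1.41 and 1.05. For each of these genes 3D normoxia was the highest library and 2D hypoxia the lowest. With a pseudocount of 5 FPKM the differences of MUC5AC, S100P, AQP3, SPDEF and SLC51B were 0.09, 0.60, 0.64, 0.66 and 0.77, so that none of these genes passed the threshold.

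The 6 members of this class with negative differences included TAGLN, the actin-binding protein transgelin of contractile cells. It was measured at 2.26 and 8.75 FPKM in normoxic and hypoxic 3D cells and 13.7 and 227 FPKM in the 2D cells, so that 2D hypoxia stood far above all other libraries, with responses of 1.58 in 3D and 3.96 in 2D, a difference of -2.38. PDGFB, a platelet-derived growth factor chain, was measured at 0.74 FPKM at normal and 3.49 FPKM at low oxygen in 3D, and 2.16 and 24.6 FPKM in 2D, a difference of -1.65. COL5A1, a fibrillar collagen chain, was measured at 0.455 FPKM (normoxia) and 2.12 FPKM (hypoxia) in 3D, against 8.44 and 54.6 FPKM in 2D, a difference of -1.46. C15orf48, a small mitochondrial protein gene, had a difference of -1.01.

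ADH1C, an alcohol dehydrogenase, and FCGBP, a mucus protein that binds IgG, were the downward members with negative differences. ADH1C was measured at 14.3 and 0.671 FPKM in normoxic and hypoxic 3D cells and 1.09 and 0.0151 FPKM in the 2D cells, and FCGBP at 27.3 FPKM at normal and 2.21 FPKM at low oxygen in 3D, and 3.72 and 0.2 FPKM in 2D. Each was lower in hypoxia in both formats, and the 2D levels were low enough for the pseudocount to limit the 2D response. As plain ratios of FPKM, both genes fell further in 2D than in 3D, the other way from their negative differences. ADH1C reached the mean of 1 FPKM only through 3D normoxia. With a pseudocount of 0.1 FPKM the difference of FCGBP reversed from -1.16 to 0.10, that of ADH1C became -0.85 and that of COL5A1 became -0.68. Those 3 differences are therefore not independent of the pseudocount.

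Members below 2-fold in each format have responses of opposite sign by construction, since responses under 1 in size can differ by 1 in no other way. They were positive in 3D and negative in 2D in 50 of the 60. KRT18 and KRT8, the paired keratins of simple epithelium, were the most abundant members. KRT18 was measured at 2717 FPKM (normoxia) and 3719.8 FPKM (hypoxia) in 3D, against 3275 and 1721 FPKM in 2D, with responses of 0.45 in 3D and -0.93 in 2D, a difference of 1.38. KRT8 was measured at 2854 and 3731 FPKM in normoxic and hypoxic 3D cells and 3126 and 1894 FPKM in the 2D cells, with responses of 0.39 in 3D and -0.72 in 2D, a difference of 1.11. For both, 3D hypoxia was the highest library and 2D hypoxia the lowest. JUND, an AP-1 subunit, had responses of 0.99 in 3D and -0.48 in 2D, a difference of 1.47.

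BMP6, a bone morphogenetic protein, the activin subunit gene INHBB, the lymphatic growth factor gene VEGFC and CACNA1H, a T-type calcium channel, had differences of 1.33, 1.01, 1.06 and 1.31. CLEC2B, a lectin-like receptor ligand, had 1.01. The negative side held the transcription factor ETS1, the clock repressor NR1D2, ARHGAP11B and the antisense gene PRRT3-AS1, at -1.01, -1.05, -1.14 and -1.05. ARHGAP11B is a partial copy of ARHGAP11A and may share reads with it.

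The threshold of 1 cuts a continuous range. Just inside it on the positive side lay EVA1C and CLEC2B, at 1.0047 and 1.0051, and just outside lay the collagen hydroxylase P4HA2 and RAB11B-AS1, at 0.9989 and 0.9996. On the negative side C15orf48 and FAM101B, at -1.008 and -1.001, were inside, and ZNF254 and SVIP, at -0.985 and -0.969, were outside. With a pseudocount of 5 FPKM, members named above that came under 1 in size also included TJP3, LCN2, CD14, GDF15 and EVA1C (2D alone), TMEM45A, DSP, MMP7, COL6A2, GADD45A, BDNF, FAM101B and ANKRD20A12P (3D alone), and LAMA3 (opposite). C15orf48 (both) did so too, as did BMP6, INHBB, VEGFC, CACNA1H, CLEC2B, ETS1, NR1D2, ARHGAP11B and PRRT3-AS1 (neither). INHA, TFF1, ABCG1, CCL26, KLF2 and BDKRB1 stayed past it at 1.21, 1.54, 1.35, 1.02, 1.05 and 1.19, and WISP2 at 1.005. H3F3A, CDC37L1-AS1 and TMEM256-PLSCR3 were at -1.08, -1.06 and -1.27, and with a pseudocount of 0.1 FPKM H3F3A was at -5.52, TMEM256-PLSCR3 at -5.97 and MUC5AC at 1.69.

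The gap between the formats at each oxygen level uses the same 4 libraries as the difference and is given beside it as a description. The hypoxic gap is the normoxic gap plus the difference, so the shift between them follows from how members were chosen. Among the 204 members with positive differences, 3D was above 2D in 85 genes in normoxia and in 187 in hypoxia, with median gaps of -0.14 and 1.11 on the log2 scale. Among the 60 with negative differences, 3D was above 2D in 32 and 4 genes, with median gaps of 0.10 and -1.33. The formats lay nearer to each other in hypoxia than in normoxia in 69 of the 264 members, against 48.2% of all genes compared. The genes compared were not chosen by the difference, so this contrast does not establish a trait of the members. Over all members the median absolute gap was 0.65 in normoxia and 1.14 in hypoxia.

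**Figure D3:**
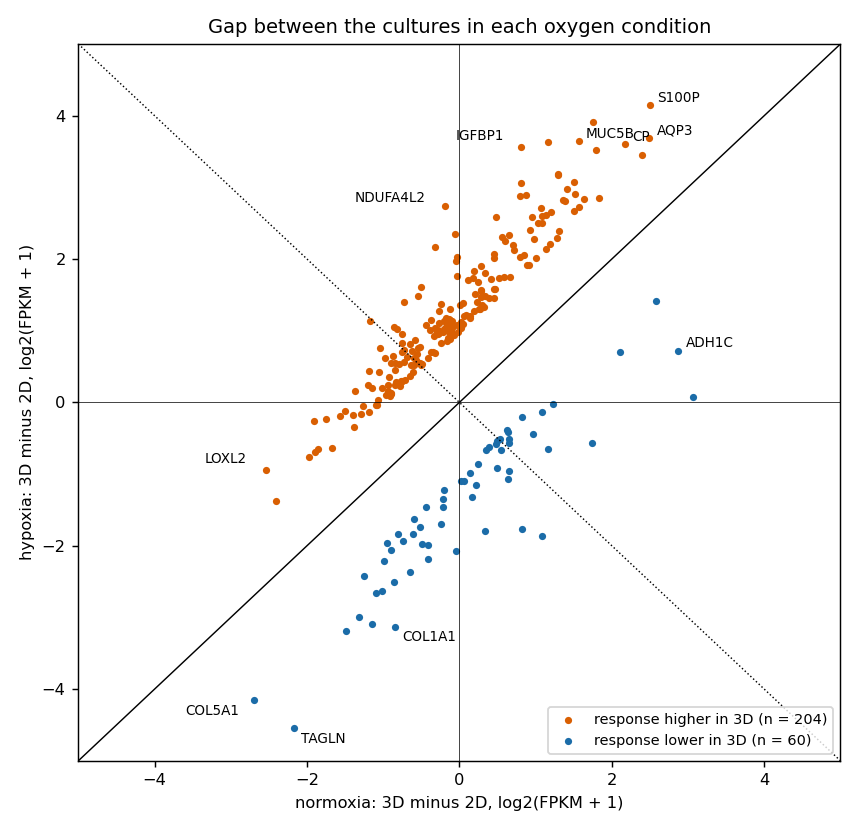
Gap between 3D and 2D (log2 of FPKM + 1) in hypoxia on the vertical axis against that in normoxia on the horizontal axis, 1 point per member. Most members with positive differences lie above 0 in hypoxia, 187 of 204, while their normoxic gaps are spread about 0, with 85 above it. A rise of at least 1 from the normoxic to the hypoxic gap is how these members were chosen.

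The library that stood farthest from the other libraries varied between members. In the 204 genes with positive differences, 3D hypoxia stood apart as the highest in 79, 2D hypoxia as the lowest in 71, 3D normoxia as the lowest in 41 and 2D normoxia as the highest in 13. In the 60 with negative differences, 2D hypoxia stood apart as the highest in 32, 3D hypoxia as the lowest in 13, 3D normoxia as the highest in 11 and 2D normoxia as the lowest in 4. Since each group is 1 library, a library and its condition cannot be told apart. The hypoxic libraries stood apart in more members than the normoxic ones on each side. These counts use the same 4 values that chose the members. The other genes compared were not sorted in this way, so whether the pattern is particular to the members is not known.

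Lists of genes with a known role place the members in their pathways, and 72 of the 264 members (27.3%) were in at least 1 of the 28 lists, as were 502 of the 12561 genes compared. The lists were chosen with earlier results of these data known. The median difference of each list is to be read beside the -0.01 of all genes compared, and its counts beside the 1.62% of all genes at or above 1 and the 0.478% at or below -1. In the list of 32 HIF target genes the median difference was 0.49 and 30 differences were above 0, while 7 reached 1 and none -1. At least 2-fold higher in hypoxia were 30 of the 32 in 3D and 24 in 2D. Besides the members already described, NDRG1, a stress-response gene, gave 4.01 in 3D and 3.06 in 2D, a difference of 0.95, and STC2, a secreted glycoprotein, 3.81 in 3D and 2.85 in 2D, a difference of 0.96. CA9, the hypoxia-induced carbonic anhydrase, had 5.31 in 3D and 4.80 in 2D, a difference of 0.51, and the oxygen sensor EGLN3 3.58 in 3D and 3.50 in 2D, a difference of 0.08.

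None of the 24 glycolysis and pyruvate control genes was a member, and their median difference was 0.26. The largest were ALDOC, an aldolase isoform, at 0.99, the first-step kinase HK2 at 0.94 and the lactate exporter SLC16A3 at 0.91. LDHA, which makes lactate, was measured at 725 FPKM at normal and 2295 FPKM at low oxygen in 3D, and 708 and 1911 FPKM in 2D, a difference of 0.23. Of the 24 differences 18 were above 0 and none reached 1 in size.

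**Figure D4:**
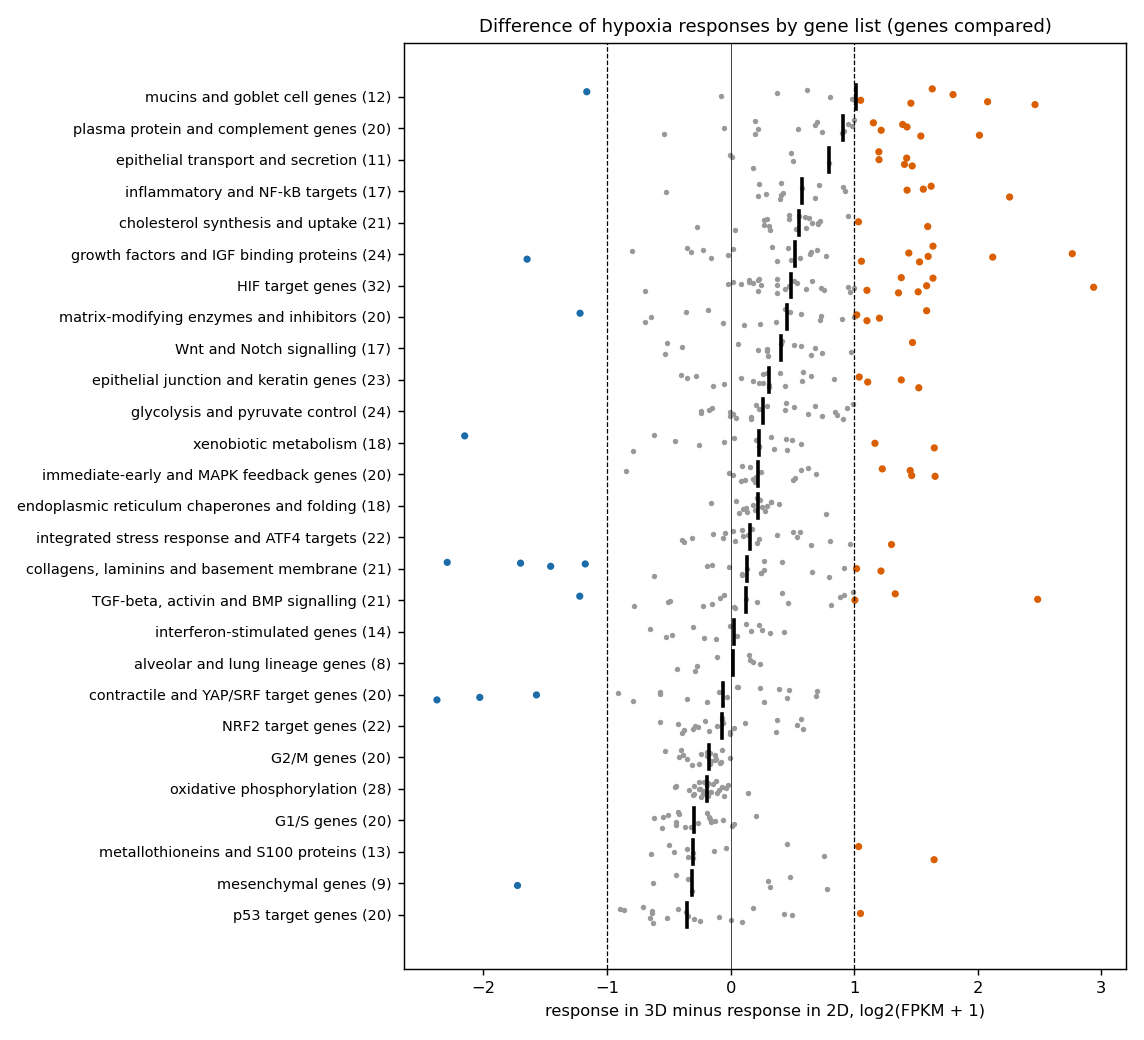
Difference of the hypoxia responses, 3D minus 2D (log2), for every compared gene of each list with more than 1 such gene, with the list median as a vertical bar, dashed lines at the thresholds of 1 and -1, and members coloured. The mucin list has the highest median, 1.02, and the G2/M and oxidative phosphorylation genes all lie between -0.53 and 0.14.

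The mucin and goblet cell list had the highest median difference of the lists with more than 1 gene, 1.02 over 12 genes, with 6 at or above 1 and 1, FCGBP, at or below -1. These members did not respond alike: MUC1 and TFF1 were higher in hypoxia in 3D, while MUC5B, MUC5AC, AGR2 and SPDEF were lower in both formats. The epithelial transport and secretion list had a median of 0.80 and 5 of 11 genes at or above 1. Its median response was -0.49 in 3D and -1.20 in 2D, so that most of its genes were lower in hypoxia and less so in 3D. CP was the member of that list higher in hypoxia in 3D by at least 2-fold.

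The plasma protein and complement list had a median of 0.91, with 18 of 20 differences above 0 and 6 at or above 1. It joined genes higher in hypoxia in 3D (C3, C1R, TF) to genes lower in 2D hypoxia (VTN, FGA). Complement factor CFB and the protease C1S, at 0.98 and 0.95, lay just under the threshold with the first group, and AMBP and FGB, at 0.99 and 0.92, with the second. In the inflammatory list the median was 0.58, and 4 of 17 genes reached 1. They were PTGS2, CXCL1, CXCL5 and CXCL8.

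Of 24 growth factors and IGF binding proteins, 7 reached 1 and 1 reached -1, with a median of 0.52. IGFBP3, a further HIF-responsive binding protein, went from 263 to 1382 FPKM between normoxia and hypoxia in 3D and from 132 to 707 FPKM in 2D, and its difference of -0.02 contrasts with the 2.76 of IGFBP1 and the 2.12 of IGFBP6. IGFBP5 and IGF2, under 5 FPKM in every library, had differences of 1.60 and 1.44. The cholesterol list had 20 of 21 differences above 0, a median of 0.56 and 2 at or above 1. Its median response was 0.18 in 3D and -0.36 in 2D.

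Collagens, laminins and basement membrane genes split both ways, with 2 of 21 at or above 1 (LAMA3, COL6A2), 4 at or below -1 (COL1A1, COL4A1, COL4A2, COL5A1) and a median of 0.14. Of 20 matrix-modifying enzymes and inhibitors, LOXL2, PLOD2, PLAU and MMP7 were at or above 1 and MMP2 at or below -1. Of 20 contractile and YAP/SRF target genes, 3 were at or below -1: TAGLN, F3 and MYL9. MYL9, a myosin light chain under 5 FPKM in every library, was measured at 0.155 FPKM (normoxia) and 0.291 FPKM (hypoxia) in 3D, against 0.191 and 4.43 FPKM in 2D. It passed the filter on the mean only through 2D hypoxia. The list median was -0.06, close to that of all genes.

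In other lists few genes or none were members. Of 20 immediate-early and MAPK feedback genes 4 reached 1 (FOS, JUND, DUSP5, KLF2), with a median of 0.22. TGF-beta, activin and BMP signalling had a median of 0.12 over 21 genes, with 3 at or above 1 (INHA, BMP6, INHBB) and 1 at or below -1. The 4 members among 23 epithelial junction and keratin genes were KRT8, KRT18, DSP and TJP3, with a list median of 0.31. Xenobiotic metabolism genes had a median of 0.23 over 18 genes, with CYP2S1 and ALDH3A1 at or above 1 and ADH1C at or below -1. Wnt and Notch signalling (median 0.41 over 17 genes) held DKK1, the integrated stress response list (0.16 over 22) TRIB3, and the p53 target list (-0.35 over 20) GDF15 as the member. Among 13 metallothionein and S100 genes (median -0.30) the members were MT1X and S100P, and among 9 mesenchymal genes (median -0.31) TNC. No gene of the endoplasmic reticulum chaperone, NRF2 target, interferon, lung lineage, G1/S, G2/M or oxidative phosphorylation lists was a member. All 20 G2/M genes had differences at or below 0, with a median of -0.18, as had 27 of 28 oxidative phosphorylation genes, with a median of -0.19. Their differences were small, between -0.53 and 0.14.

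**Figure D5:**
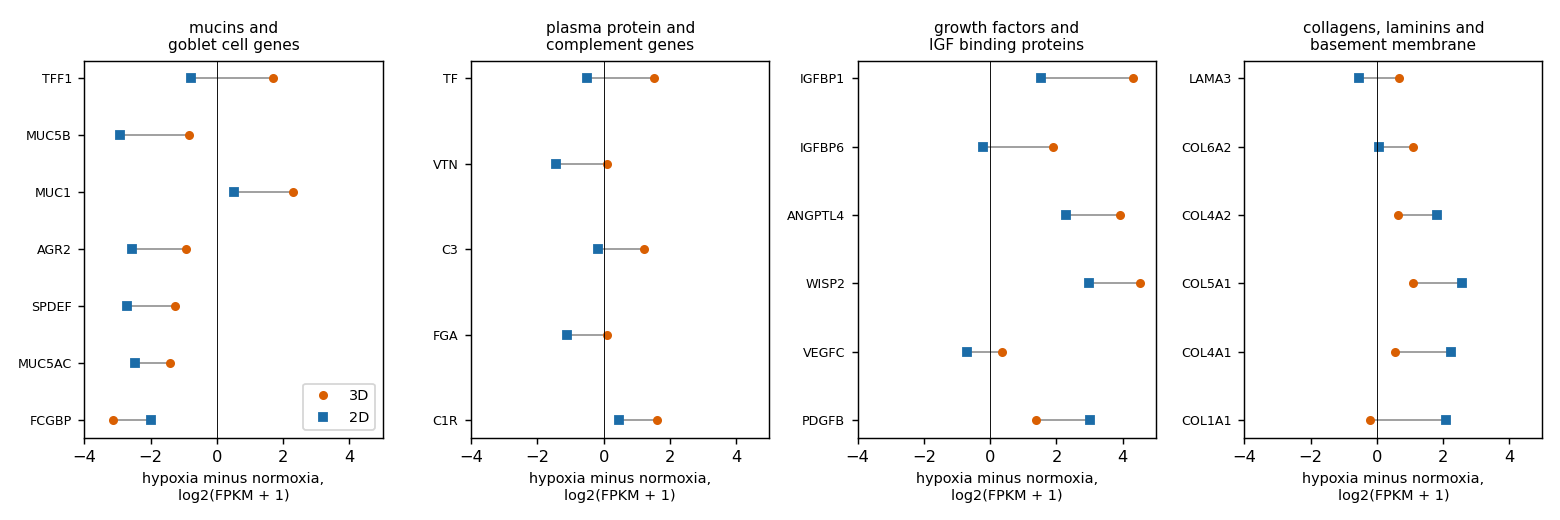
Response to hypoxia (log2 ratio of FPKM + 1) of the members named in the text from 4 lists, as a circle for 3D and a square for 2D joined by a line, sorted by the difference. The 3D point of TFF1 lies above 0 and its 2D point below, and COL1A1 and PDGFB end their lists with the 2D point far to the right.

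Over all promoters, the core shown in capitals above (ACGTG or GCGTG) was found in 48.4% of all 27305 promoters of the table, in 63.9% of the 10045 promoters of genes compared, in 60 of 138 members with positive differences (43.5%) and in 20 of 35 with negative ones (57.1%). By class the share ran from 7 of 20 members with opposite responses (35%) to 14 of 24 with 2-fold responses in both formats (58.3%). ACGTG alone was in 10 of those 24 (41.7%) and in 27.2% of genes compared. It was in 12% of members with a response in 3D alone, 20.5% of those with one in 2D alone, 15% of those with opposite responses and 14.3% of those below 2-fold in each.

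Other short motifs were searched on both strands in the same windows. The AP-1 site TGANTCA was in 17 of 138 members with positive differences (12.3%), 3 of 35 with negative ones (8.57%) and 4.37% of genes compared. The TEAD core GGAATG was in 23 (16.7%), 2 (5.71%) and 10.8%, and the CArG box, bound by SRF, in 2 (1.45%), 0 and 0.986%. These shares describe letters near annotated starts and were not tested.

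Some members lay side by side in the genome. Among 257 members placed in RefSeq order, 17 pairs were neighbours among the genes compared. Both genes of each pair had differences of the same sign, in a set where 77.3% of single members were positive. Of the 12335 neighbouring pairs of all genes compared, 54.0% had differences of the same sign. How many pairs of members to expect was not computed, and a link between neighbours was not tested. The pairs included COL4A1 with COL4A2, KRT8 with KRT18, MUC5AC with MUC5B, ABCG1 with TFF1, and CXCL8, CXCL1 and CXCL5 in a row. MUC5B responded past 2-fold in 2D alone and MUC5AC in both formats, and the 3 chemokine genes were each in a different class. BDKRB1 stood beside BDKRB2, the constitutive bradykinin receptor, which had a difference of 1.84.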

How the data were processed

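Polyadenylated RNA was sequenced in 4 libraries, 1 per group, with a stranded mRNA kit per the labels' protocols. The authors deposited FPKM values, fragments counted per gene set against transcript length and library depth, 1 for each symbol in a library. The submitters' processing notes name TopHat2 2.1.1, Bowtie2 2.2.8, SAMtools 0.1.18, Cuffdiff 2.2.1 and the hg19 build. Annotation, scaling and strand setting: not given in the sources used here.

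From the FPKM, responses were computed as log2 ratios with a pseudocount of 1 FPKM, which shrinks each response towards 0, most for low genes, and can enlarge or shrink the difference between the formats. Of 12663 genes whose mean reached 1 FPKM, 91 small RNA genes and 11 genes listed at 0 in a library were left out. With 1 library per group and an interaction to describe, no residual degrees of freedom remain, so no test was run. Genes were described by size.

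Depth was estimated from the commonest low step of FPKM times transcript length, with lengths from GENCODE 29, an annotation of another build used for lengths alone. At 1 FPKM a 2 kb transcript corresponds to 23.4, 22.7, 47.5 and 77.0 fragments (3D, then 2D, normoxia first). Counting errors cover fragment sampling only.

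Members and gene lists were chosen with earlier results of these data known. Of the 264 members, 208 had at least 5 FPKM in a library and a symbol that does not start with LOC or LINC. From these the 10 largest differences in each direction, the 5 largest of each class and direction, and every member of a list were taken for naming, with the 2 genes on either side of each threshold. List genes under the threshold, such as CA9 and LDHA, and BDKRB2 were named after their values were seen. Some genes that meet the rule are not reported here. The lists held 635 entries, of which 631 were found among the symbols. Other pseudocounts, filters, scalings and sizes were tried. The class assignment was tested on simulated data. Scripts used Python 3.11.15, numpy 2.4.6, pandas 2.3.3 and matplotlib 3.10.9.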

Additional observations from a re-analysis of the deposited data

Results flagged for a closer look

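In 12 of the named genes the library in 3D hypoxia lay on the other side of its normoxic partner than the library in 2D hypoxia did, by at least 0.5 on the log2 scale in each format. Each group has 1 library, and the difference was not tested. Higher in hypoxia in 3D and lower in 2D were TFF1, with a difference of 2.46, TPPP3 with 2.16, ABCG1 with 2.08, TF with 2.01 and CCL26 with 2.01. The same direction was seen for KLF2 with 1.65, CXCL1 with 1.62, DUSP5 with 1.23 and LAMA3 with 1.22. Lower in hypoxia in 3D and higher in 2D were ENO3, with a difference of -1.37, CDC37L1-AS1 with -2.31 and TMEM256-PLSCR3 with -2.99. In the last of these the 2D normoxia value of 0.0135 FPKM stood apart from the other libraries.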

How the results depend on the processing

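The counts moved with the pseudocount, with the size required and, for opposite signs, with the minimum. With a pseudocount of 0.1 FPKM there were 392 positive and 130 negative differences of at least 1 in size, 151 genes with a response in 3D alone, 134 in 2D alone and 71 opposite in sign. With 5 FPKM these counts were 90, 18, 35, 33 and 4. A mean of at least 5 FPKM left 18 negative differences, 43 genes in 3D alone, 43 in 2D alone and 15 opposite. With a size of 1.5 the counts were 52, 21, 14, 33 and 16. With no minimum for opposite signs 139 genes were opposite, and with a minimum of 1 there were 4. The cause was not tested beyond these settings. Of the genes past the size, 258 of 522 with a pseudocount of 0.1, 107 of 108 with 5, 261 of 346 with libraries scaled to one sum and 251 of 252 with one upper quartile were members. Scaling to one sum also raised the levels against the fixed pseudocount. The counts stayed within 1.5 times of those reported with both scalings, with genes listed at 0 kept and with no filter on the mean. Of the 97 genes named by the rule, 33 lay under 1 in size with a pseudocount of 5. C15orf48 did so with a pseudocount of 0.1, at -0.92. Scaling to one sum brought FCGBP (-0.77) and C15orf48 (-0.98) under 1 in size. One upper quartile did so for CLEC2B (0.992), EVA1C (0.988) and INHBB (0.989). FCGBP reversed to 0.10 with a pseudocount of 0.1, the median of the lung lineage list to -0.00555 with 0.1, and that of the interferon list to -0.0862 with 5. No paired analysis was possible because each group has 1 library and the labels give no replicate numbers, and leaving out a library leaves no response in its format. Depth limits the low genes: the median counting error was 0.33 for members under 5 FPKM and 0.16 for those named or eligible to be, and 67 members had a library under 1 FPKM, 34 of them among the 60 negative differences.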

Other observations

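Genes of fatty acid synthesis and storage outside the lists were looked at after their values were seen, so they are given as values only. SCD, the desaturase that makes oleate, had hypoxia responses of 1.04 in 3D and -0.42 in 2D, FASN, the fatty acid synthase, 0.31 in 3D and -0.74 in 2D, and SREBF1, the lipogenic transcription factor, 0.57 in 3D and -0.46 in 2D. All of these were members, with positive responses in 3D and negative ones in 2D. FADS2, another desaturase, had 0.20 in 3D and -0.76 in 2D and was just under the threshold. PLIN2, a lipid droplet coat protein, had 2.55 in 3D and 1.21 in 2D, and HILPDA, a hypoxia-induced droplet protein, 1.62 in 3D and 0.33 in 2D, so that both were higher in hypoxia in each format and more so in 3D.

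Some tubulin and tubulin-binding genes were also among the members and were chosen in the same way, after their values were seen. Other tubulin genes are not given here, so these values do not describe the family. TUBA1A had responses of 1.97 in 3D and 0.57 in 2D, the neuronal-type isotype TUBB3 1.27 in 3D and 0.26 in 2D, and TPPP, a tubulin polymerisation protein related to TPPP3, 1.62 in 3D and 0.00 in 2D. Of the 11 genes other than small RNA genes left out because a library listed them at 0, 9 would have had a difference of at least 1 in size. Since a listed 0 may be an estimate that failed, no fold is given for them. Antisense, LINC or LOC symbols made up 20 of the 264 members.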
